A study of Mus musculus with 24 samples.

Results

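The effect of a Chek2 knock-out was compared between tumours of 2 mouse lines, B16, a melanoma line, and MC38, a colon carcinoma line, in mice that received PBS. The comparison takes 12 of the 24 RNA-seq libraries of the series, chosen by their labels alone, in 4 groups of 3: B16 CHEK2-knock out tumours (B16 KO), B16 CHEK2-WT tumours (B16 WT), MC38 CHEK2-knock out tumours (MC38 KO) and MC38 CHEK2-WT tumours (MC38 WT), all with PBS. The other 12 libraries hold the same 4 kinds of tumour after anti-PD-1, an antibody that blocks the T cell checkpoint receptor PD-1, and are set beside the PBS values at the end. The design text places the knock-out in the tumour cells, and host cells in the tumour are not labelled as altered. How the knock-out was made, whether each knock-out line is 1 clone, and the age, sex and strain of the mice are not given in the sources used here. The labels do not say which animal each library came from, so p-values measure the spread between these libraries, which may be partly technical.

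Values are FPKM, fragments scaled by transcript length and library size. Of 55335 genes in the files, 14735 reached 1 FPKM in 3 or more of the 12 libraries and were tested on the log2(FPKM + 1) scale, which understates fold changes of genes with low values. In each line the knock-out effect is the mean of the KO libraries minus that of the WT libraries. It includes any other difference between the knock-out and parental cells, which cannot be told apart here from the loss of Chek2. The line difference is the B16 effect minus the MC38 effect, so a positive one means that the gene stood relatively higher after knock-out in B16. A gene was called at an adjusted p under 0.05 (limma, Benjamini-Hochberg over all genes tested). Values after ± are standard errors of limma, and all log2 values are differences on this scale unless a level in FPKM is named.

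CHK2, the protein encoded by Chek2, is a kinase activated by DNA double-strand breaks that phosphorylates p53 and CDC25 phosphatases. Several gene programmes are useful for reading the comparison. In the integrated stress response, kinases that phosphorylate eIF2-alpha favour translation of the transcription factor ATF4, which induces genes of amino acid synthesis and transport and aminoacyl-tRNA synthetases. In hypoxia, stabilised HIF factors bind ACGTG-containing sites and induce glycolytic enzymes, angiogenic factors and collagen prolyl hydroxylases. Interferon-gamma, secreted by activated T and NK cells, induces guanylate-binding proteins, antigen presentation genes and the chemokines Cxcl9 and Cxcl10. MC38 tumours are known for a rich T cell infiltrate and B16 tumours for a poor one.

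Estimated depth was 13300000 to 22570000 fragments over the 12 libraries, and 12562 to 13319 genes reached 1 FPKM in a library. Chek2 (chr5:110839979-110874145, plus strand, GRCm38) had 5.68, 5.64 and 5.67 FPKM in B16 KO tumours, against 7.70, 7.93 and 7.17 FPKM in B16 WT tumours. It had 2.20, 2.40 and 1.92 FPKM in MC38 KO tumours, against 6.14, 5.15 and 4.61 FPKM in MC38 WT tumours. KO and WT libraries did not overlap in either line, and transcript remained in all 6 KO libraries. The B16 effect was -0.37 ± 0.10 (limma adjusted p = 0.0865) and the MC38 effect -0.99 ± 0.10 (limma adjusted p = 9.38e-05), so Chek2 fell in MC38 KO tumours and its B16 effect missed the threshold. The line difference was 0.62 ± 0.14 (limma adjusted p = 0.0198) and lost its call without MC38 KO replicate 3 (adjusted p = 0.0501). Melanocyte genes summed to 6494 to 7358 FPKM in B16 KO and 6514 to 7413 FPKM in B16 WT tumours, against 23.2 to 24.02 FPKM in MC38 KO and 22.7 to 29.6 FPKM in MC38 WT tumours, as the line labels say. Colon epithelial genes were nearly absent in MC38, at 2.40 to 5.42 FPKM in KO and 5.63 to 21.4 FPKM in WT tumours. Haemoglobin and other erythroid genes summed to 3458, 3649 and 199 FPKM in B16 KO replicates 1, 2 and 3, against 177 to 287 FPKM in B16 WT libraries, so B16 KO replicates 1 and 2 stood apart. Small structural RNAs summed to 170.6 to 175.8 FPKM in MC38 KO tumours, against 20.3 to 29.96 FPKM in MC38 WT tumours, so the MC38 KO libraries stood apart there. The part of either in the results below was not tested.

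More genes were called in MC38 than in B16 tumours, and the knock-out effect as defined above differed between the lines for many genes. The line difference was called for 1353 of 14735 genes (9.18%), with 533 higher in B16 relative to MC38 (3.62%) and 820 lower (5.56%). Of these 1353 genes, 385 differed at least 2-fold, 201 of them higher and 184 lower. In B16, 255 genes (1.73%) were called, 126 higher (0.855%) and 129 lower (0.875%) in KO tumours. In MC38, 2845 genes (19.3%) were called, 1468 higher (9.96%) and 1377 lower (9.35%). The median over all tested genes was -0.05 for the line difference, -0.04 for the B16 effect and 0.005 for the MC38 effect. Across the 14735 genes the effects in B16 and MC38 had a Pearson r of 0.0913 and a Spearman rho of 0.111. This describes genes that share libraries, which are not independent replicates.

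**Figure D1:**
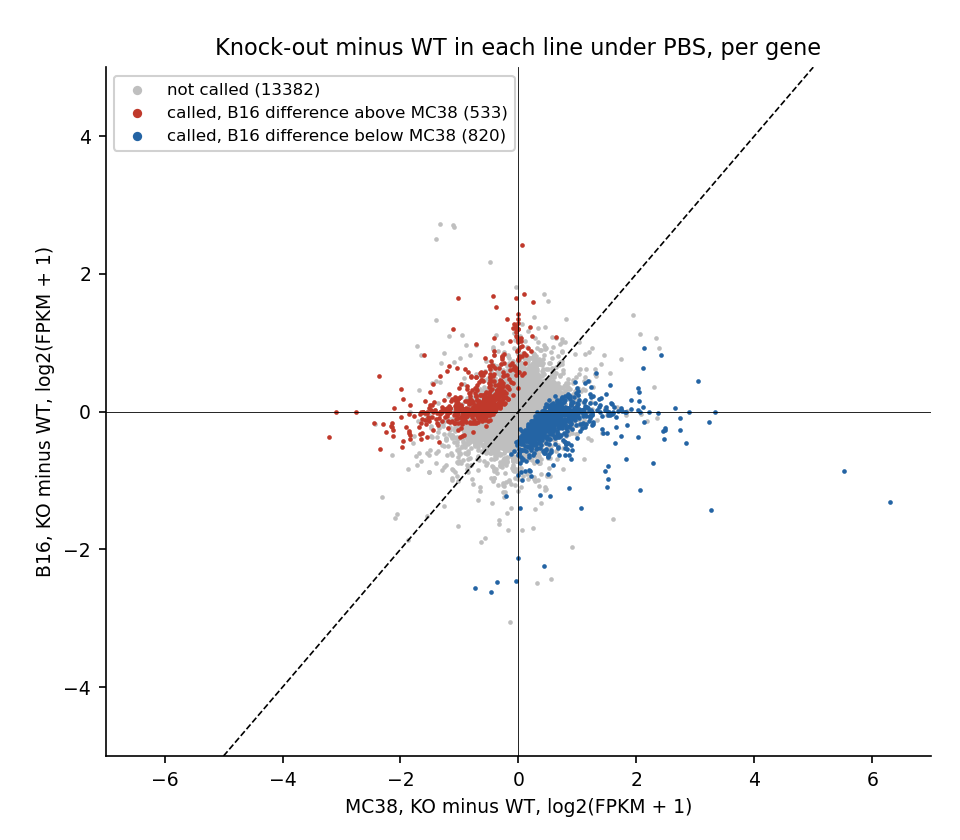
Knock-out effect under PBS for 14735 genes, as KO minus WT on log2(FPKM + 1), in MC38 on the x axis and in B16 on the y axis. The 533 red genes were called with the B16 effect above the MC38 effect and the 820 blue genes with it below; most coloured genes lie nearer to 0 along the B16 axis than along the MC38 axis.

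Most called line differences came with no called change in B16 and a called change in MC38. Of the 533 genes with a higher line difference, 66 (12.4%) were called higher in B16 alone and 411 (77.1%) lower in MC38 alone. A further 10 were called in opposite directions in the 2 lines, and 45 in neither. Of the 820 genes with a lower line difference, 64 (7.80%) were called lower in B16 alone and 622 (75.9%) higher in MC38 alone, with 9 called in opposite directions and 122 in neither. The absolute effect was larger in MC38 for 418 of the 533 (78.4%) and 641 of the 820 genes (78.2%). The split by direction depended on the scaling of the libraries. Higher calls were 39.4% of the line differences on the deposited scale, 25.7% after rescaling to protein-coding genes alone, which moved the median over all genes to -0.12, and 54.5% with median-of-ratios size factors. Higher calls in B16 were 49.4% on the deposited scale, 34.9% after protein-coding rescaling, 67.8% with size factors and 59.5% after quantile normalization. In MC38 they were 51.6%, 60.5% and 45.7% under the first 3 of these.

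Every tested gene of cytotoxic T cells fell in MC38 KO tumours and none was called in B16 tumours, where most were scarcely detected. Cd8a, which encodes the alpha chain of the CD8 co-receptor, had 0.0621, 0.210 and 0.276 FPKM in B16 KO tumours, against 0.0888, 0.411 and 0.143 FPKM in B16 WT tumours. It had 1.21, 0.585 and 0.775 FPKM in MC38 KO tumours, against 7.06, 6.43 and 3.99 FPKM in MC38 WT tumours. The MC38 groups did not overlap, while all 6 B16 libraries stayed under 1 FPKM. The MC38 effect of Cd8a was -1.86 ± 0.19 (limma adjusted p = 0.000122) and its line difference 1.83 ± 0.27 (limma adjusted p = 0.00279). Ifng, the interferon-gamma gene, was listed at 0 in all 6 B16 libraries. It had 0.977, 0.335 and 0.103 FPKM in MC38 KO tumours, against 3.78, 2.84 and 3.93 FPKM in MC38 WT tumours, and its line difference was 1.65 ± 0.26 (limma adjusted p = 0.00378). With B16 at 0, this line difference is the MC38 effect with its sign turned. Without MC38 WT replicate 1, 2 or 3, Ifng no longer passed the filter. In bulk tissue, fewer cells of a type and less RNA per cell cannot be told apart.

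Of the 14 cytotoxic genes on the list, 11 passed the filter on low values, 3 of them through the MC38 WT libraries alone. None of the 11 was called in B16, all were called lower in MC38 (against 9.35% of all genes) and all had a higher line difference (against 3.62%), with medians of -0.13 in B16, -1.66 in MC38 and 1.65 for the line difference. Since the filter favours genes that are high in 1 group, the count over these 11 genes is a description. The 14 genes summed to 4.25 to 7.81 FPKM in B16 KO and 5.63 to 9.97 FPKM in B16 WT tumours, against 15.3 to 30.1 FPKM in MC38 KO and 113.8 to 124.2 FPKM in MC38 WT tumours. For 10 of the 11 genes the mean in B16 WT tumours was below 1 FPKM. The exception was Ccl5, a chemokine made by cytotoxic and other cells that attracts T cells. Ccl5 had 5.62, 5.81 and 3.58 FPKM in B16 KO tumours, against 4.52, 6.11 and 6.68 FPKM in B16 WT tumours, and the B16 groups overlapped. It had 10.9, 9.65 and 6.58 FPKM in MC38 KO tumours, against 48.3, 48.5 and 44.8 FPKM in MC38 WT tumours, with every KO library below every WT library. The B16 effect was -0.18 ± 0.19 (limma adjusted p = 0.703), the MC38 effect -2.29 ± 0.19 (limma adjusted p = 3.48e-05) and the line difference 2.11 ± 0.27 (limma adjusted p = 0.00141). Ccl5 thus had a called line difference at a B16 level that left room for a fall of the MC38 size. With a pseudocount of 0.1 FPKM the 11 line differences came down to 3. Without MC38 WT replicate 1 or 3 they came down to 6, and without MC38 WT replicate 2 to 7; in each of these 3 fits 8 of the genes passed the filter.

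T cell receptor and NK cell genes had the same form. Of 18 T cell receptor and CD3 genes, 9 were tested, 4 of which passed the filter through the MC38 WT libraries alone. None was called in B16, all 9 were called lower in MC38 (against 9.35% of all genes) and 7 had a higher line difference (against 3.62%), with medians of -0.26 in B16 and -1.67 in MC38. Trbc1 and Trbc2, the constant regions of the T cell receptor beta chain and near-identical copies whose read assignment is uncertain, had line differences of 1.86 and 1.96 (limma adjusted p = 0.00466 and 0.0061). Of the 16 NK receptor genes, 10 were tested, 4 of them through MC38 WT libraries alone. None was called in B16, 9 were called lower in MC38 (against 9.35% of all genes) and 8 had a higher line difference (against 3.62%), with medians of -0.09 in B16 and -1.46 in MC38. Il2rb, a subunit of the interleukin 2 and 15 receptors, had 0.0542, 0.176 and 0.0503 FPKM in B16 KO tumours, against 0.0700, 0.561 and 0.417 FPKM in B16 WT tumours. It had 1.70, 1.22 and 1.19 FPKM in MC38 KO tumours, against 7.19, 7.68 and 7.62 FPKM in MC38 WT tumours, and a line difference of 1.56 ± 0.20 (limma adjusted p = 0.00143). Mean B16 WT levels were below 1 FPKM for 8 of the 9 and all 10 genes of these lists. The B16 medians of the T cell receptor and NK lists moved to -0.13 and -0.04 without B16 WT replicate 2, and that of the NK list to -0.17 or -0.18 without B16 WT replicate 1 or any 1 MC38 WT library. As for the cytotoxic list, these counts over the members that passed are descriptions. With a pseudocount of 0.1 FPKM, 1 T cell receptor and 3 NK line differences were called, and Trbc1 (0.079), Trbc2 (0.155) and Il2rb (0.225) lost theirs (limma adjusted p). Leaving out any 1 of the 3 MC38 WT libraries left 3 T cell receptor line differences among 5 members that passed the filter and 3 or 4 NK line differences among 6. The MC38 calls then came down to 4 for the T cell receptor list and to 4 or 5 for the NK list.

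Checkpoint genes followed the T cell genes in MC38, but fewer line differences were called. Of 13 members 12 were tested, 5 of them through the MC38 WT libraries alone, so the counts are descriptions. None was called in B16, 10 were called lower in MC38 (against 9.35% of all genes) and 5 had a higher line difference (against 3.62%). Ctla4, an inhibitory receptor of T cells, had a line difference of 1.22 ± 0.19 (limma adjusted p = 0.00397). Pdcd1lg2, a ligand of PD-1, had one of 1.39 ± 0.32 (limma adjusted p = 0.0217), which lost its call without MC38 KO replicate 3 (adjusted p = 0.0537). Pdcd1, the gene for PD-1 itself, had 0.03005, 0.153 and 0.0376 FPKM in B16 KO tumours, against 0.193, 0.0311 and 0.0925 FPKM in B16 WT tumours. It had 0.713, 0.651 and 0.713 FPKM in MC38 KO tumours, against 3.11, 2.98 and 1.46 FPKM in MC38 WT tumours, and the MC38 groups did not overlap. Its line difference of 0.98 ± 0.24 (limma adjusted p = 0.0308) lost its call without B16 KO replicate 1 or 2, B16 WT replicate 2 or 3, or MC38 KO replicate 1, 2 or 3 (adjusted p of 0.0523 to 0.069). Cd274, the gene of PD-L1, a ligand of PD-1, had 11.995, 15.1 and 9.51 FPKM in B16 KO tumours, against 16.9, 15.96 and 13.5 FPKM in B16 WT tumours. It had 23.2, 17.5 and 14.9 FPKM in MC38 KO tumours, against 29.5, 30.03 and 50.1 FPKM in MC38 WT tumours, and its line difference of 0.59 ± 0.31 was not called (limma adjusted p = 0.266). Foxp3, the regulatory T cell factor, did not pass the filter, and without MC38 WT replicate 1, 2 or 3 neither did Ctla4, Pdcd1 and Pdcd1lg2. With a pseudocount of 0.1 FPKM the line differences of Ctla4 (0.0579) and Pdcd1 (0.153) lost their calls (limma adjusted p). With no filter those of Pdcd1 (0.0631) and Pdcd1lg2 (0.0504) did, and with all 24 libraries in 1 fit that of Pdcd1 (0.0973). The 5 line differences became 1 without MC38 WT replicate 1 or 2, 2 without MC38 WT replicate 3 or MC38 KO replicate 3, and 3 without MC38 KO replicate 1 or 2, B16 KO replicate 2 or B16 WT replicate 3. The 10 MC38 calls became 3 without MC38 WT replicate 1 or 2 and 4 without MC38 WT replicate 3.

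**Figure D2:**
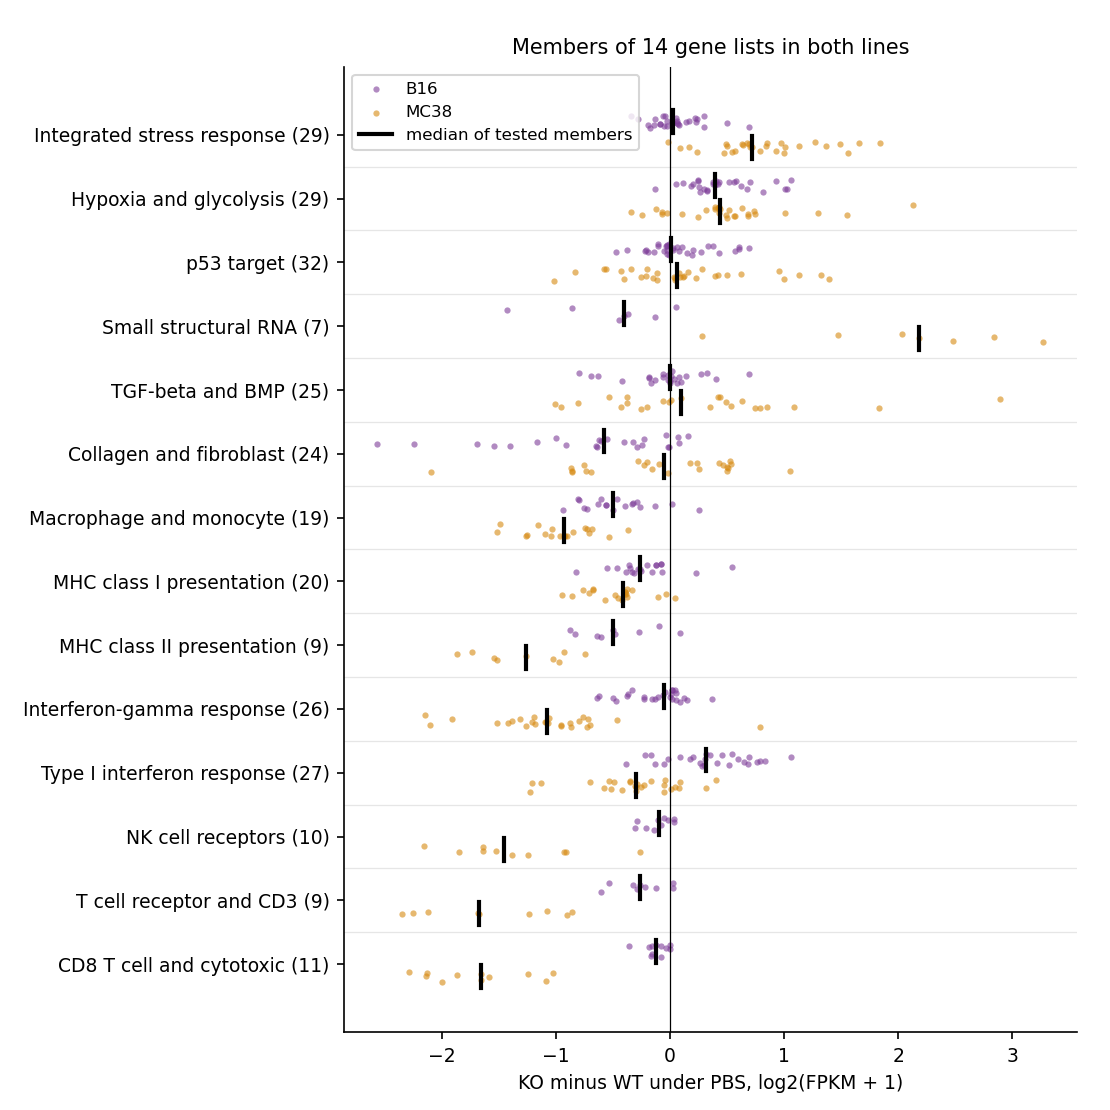
Knock-out effect under PBS of the tested members of 14 gene lists, as KO minus WT on log2(FPKM + 1), with B16 in purple above MC38 in orange for each list; each point is 1 gene and the black mark is the median. Cytotoxic, T cell receptor and NK genes lie near 0 in B16 and well below 0 in MC38, integrated stress response genes lie around 0 in B16 and mostly above 0 in MC38, and hypoxia genes lie mostly above 0 in both lines.

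Most interferon-gamma response genes fell in MC38 KO tumours too, and here part of the list was well expressed in B16. Of 26 tested members, none was called in B16, 16 were called lower (against 9.35% of all genes) and 1 higher (against 9.96%) in MC38, and 7 line differences were called, all higher (against 3.62%). Of the 26, 1 passed the filter through the MC38 WT libraries alone, so these counts are descriptions. The medians were -0.05 in B16, -1.08 in MC38 and 1.01 for the line difference. The B16 median turned to 0.10 without B16 KO replicate 1 and 0.12 without B16 WT replicate 2, and was -0.14 to -0.27 without each of the other B16 libraries. Gbp4, a guanylate-binding protein induced by interferon-gamma, had 0.239, 0.976 and 0.297 FPKM in B16 KO tumours, against 0.446, 1.61 and 0.354 FPKM in B16 WT tumours. It had 20.8, 16.3 and 13.97 FPKM in MC38 KO tumours, against 60.9, 57.2 and 82.3 FPKM in MC38 WT tumours, and a line difference of 1.68 ± 0.37 (limma adjusted p = 0.0193), which lost its call without MC38 KO replicate 3 (adjusted p = 0.0519). Gbp10 of the same family had a line difference of 2.15 ± 0.47 (limma adjusted p = 0.0176). Members of this family are close in sequence, so their read assignment is uncertain. Gbp4 and Gbp10 lost their line differences with a pseudocount of 0.1 FPKM (limma adjusted p = 0.245 and 0.266) and with all 24 libraries in 1 fit (limma adjusted p = 0.387 and 0.264). Cxcl9, a chemokine that attracts T cells through CXCR3, had 0.797, 4.53 and 1.08 FPKM in B16 KO tumours, against 2.10, 7.52 and 1.88 FPKM in B16 WT tumours. It had 46.97, 25.1 and 21.3 FPKM in MC38 KO tumours, against 149.7, 111 and 143 FPKM in MC38 WT tumours. Cxcl9 fell in MC38 (limma adjusted p = 0.0107), but B16 libraries of 1 group spread widely and the line difference of 1.52 ± 0.68 was not called (limma adjusted p = 0.191). Of the 16 genes that fell in MC38, 7 had a B16 WT level high enough for an equal fall, and 2 of these 7 had a called line difference. The 7 line differences came down to 0 when all 24 libraries shared 1 fit, to 2 without MC38 KO replicate 3, to 3 without MC38 KO replicate 2, MC38 WT replicate 3, B16 KO replicate 2 or B16 WT replicate 1, and to 4 without MC38 WT replicate 1 or 2 or B16 WT replicate 3. With a pseudocount of 0.1 FPKM the 7 line differences became 1 and the 16 lower MC38 calls became 9. These MC38 calls ranged from 11 to 21 with 1 library left out.

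Antigen presentation genes had few called line differences. Of 20 tested MHC class I genes, all with at least 1 FPKM in B16 WT tumours, 1 was called lower in B16 (against 0.875% of all genes), 6 lower in MC38 (against 9.35%) and 3 had a higher line difference (against 3.62%). Tapbp, tapasin, which loads peptides onto class I molecules, had 9.96, 12.6 and 8.84 FPKM in B16 KO tumours, against 6.95, 7.34 and 6.17 FPKM in B16 WT tumours, all KO libraries above all WT libraries. It had 51.2, 44.9 and 61.2 FPKM in MC38 KO tumours, against 73.7, 62.4 and 74.6 FPKM in MC38 WT tumours, all KO libraries below all WT libraries. The line difference was 0.96 ± 0.19 (limma adjusted p = 0.013). H2-M3, a non-classical class I gene, had 4.29, 6.08 and 5.94 FPKM in B16 KO tumours, against 4.65, 4.87 and 3.91 FPKM in B16 WT tumours. It had 21.3, 16.8 and 15.9 FPKM in MC38 KO tumours, against 28.4, 27.7 and 34.1 FPKM in MC38 WT tumours, and a line difference of 0.94 ± 0.20 (limma adjusted p = 0.0162). H2-K1, a classical class I gene, had 6.59, 8.58 and 5.95 FPKM in B16 KO tumours, against 10.7, 18.9 and 11.2 FPKM in B16 WT tumours, with a called B16 effect of -0.83 (limma adjusted p = 0.0443) that lost its call without any 1 of the 12 libraries other than B16 WT replicate 1 (adjusted p of 0.0565 to 0.12). Its MC38 effect was -0.37 (limma adjusted p = 0.172). Of 9 tested class II genes none was called in B16 and all were called lower in MC38 (against 9.35% of all genes). There were 2 higher line differences (against 3.62%), with medians of -0.50 in B16 and -1.26 in MC38. Of these 9 genes, 7 had room for an equal fall in B16, and none of the 7 had a called line difference. The B16 median of class II genes was -0.31 without B16 KO replicate 1 or B16 WT replicate 2 and -0.83 without B16 KO replicate 2. With all 24 libraries in 1 fit the class I calls in MC38 and for the line difference, those of Tapbp and H2-M3 included, came down to 0 and the class II calls in MC38 to 1. The 9 class II calls became 3 without MC38 WT replicate 3 or MC38 KO replicate 2 or 3 and 5 without MC38 WT replicate 2, and the 6 class I calls became 10 without B16 KO replicate 2. The 2 class II line differences became 1 without any 1 library other than MC38 KO replicate 1. With a pseudocount of 0.1 FPKM the 2 class II line differences became 0 and the 9 class II calls in MC38 became 6.

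Macrophage genes were detected in both lines, and their line difference was not called for any of 19 tested members. None was called in B16 and 7 were called lower in MC38 (against 9.35% of all genes), with medians of -0.50 in B16, -0.93 in MC38 and of 0.42 for the line difference. The median line difference was 0.07 without B16 KO replicate 2, 0.11 without MC38 KO replicate 3, 0.25 without B16 WT replicate 1, 0.66 without B16 WT replicate 2 and 0.77 without MC38 KO replicate 1. The B16 median was -0.23 without B16 WT replicate 2 and -0.76 without B16 KO replicate 2. C1qa, a subunit of complement C1q made by macrophages, had 14.6, 25.99 and 10.02 FPKM in B16 KO tumours, against 28.2, 37.7 and 27.8 FPKM in B16 WT tumours. It had 253, 175 and 88.97 FPKM in MC38 KO tumours, against 328, 327 and 319 FPKM in MC38 WT tumours. KO and WT libraries did not overlap in either line, and neither effect was called (limma adjusted p = 0.222 in B16 and 0.0654 in MC38). Summed macrophage genes were 212 to 379 FPKM in B16 KO and 303 to 430 FPKM in B16 WT tumours, against 695 to 1787 FPKM in MC38 KO and 2211 to 2678 FPKM in MC38 WT tumours. The 7 MC38 calls became 13 without MC38 KO replicate 1, 2 without MC38 KO replicate 2 or 3 or MC38 WT replicate 1 or 2, 3 without MC38 WT replicate 3 and 4 without B16 KO replicate 1. They were 2 with a pseudocount of 0.1 FPKM or with no filter. Ccl2, a chemokine that recruits monocytes, had 11.8, 21.01 and 8.76 FPKM in B16 KO tumours, against 9.43, 14.7 and 12.9 FPKM in B16 WT tumours, overlapping. It had 70.8, 68.5 and 50.9 FPKM in MC38 KO tumours, against 228, 239 and 211 FPKM in MC38 WT tumours, with no overlap. The line difference of Ccl2 was 1.92 ± 0.36 (limma adjusted p = 0.00916). None of the 9 dendritic cell genes and none of the 14 endothelial genes tested was called in either line or for the line difference.

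The low B16 starting level limited how far many of these genes could fall there. Of the 533 genes, 421 were called lower in MC38, and 159 of these (37.8%) had a mean B16 WT level too low to allow an equal fall on the log2(FPKM + 1) scale. For 168 of the 421 (39.9%) that mean was below 1 FPKM. On the other side, 634 of the 820 genes with a lower line difference were called higher in MC38, and 128 of these (20.2%) were below 1 FPKM in all 6 B16 libraries. When genes had to reach 1 FPKM in at least 3 of the 6 libraries of each line, a rule chosen after seeing the data, 851 line differences were called. Under it 1 cytotoxic and 0 T cell receptor line differences were called, with 16 for the integrated stress response and 3 for hypoxia. This rule removes genes that are low in B16. The B16 WT mean was below 1 FPKM for 10 of 11 tested cytotoxic genes and 8 of 9 tested T cell receptor genes. The counts of these T cell lists thus largely follow from the rule and cannot be set against the others.

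**Figure D3:**
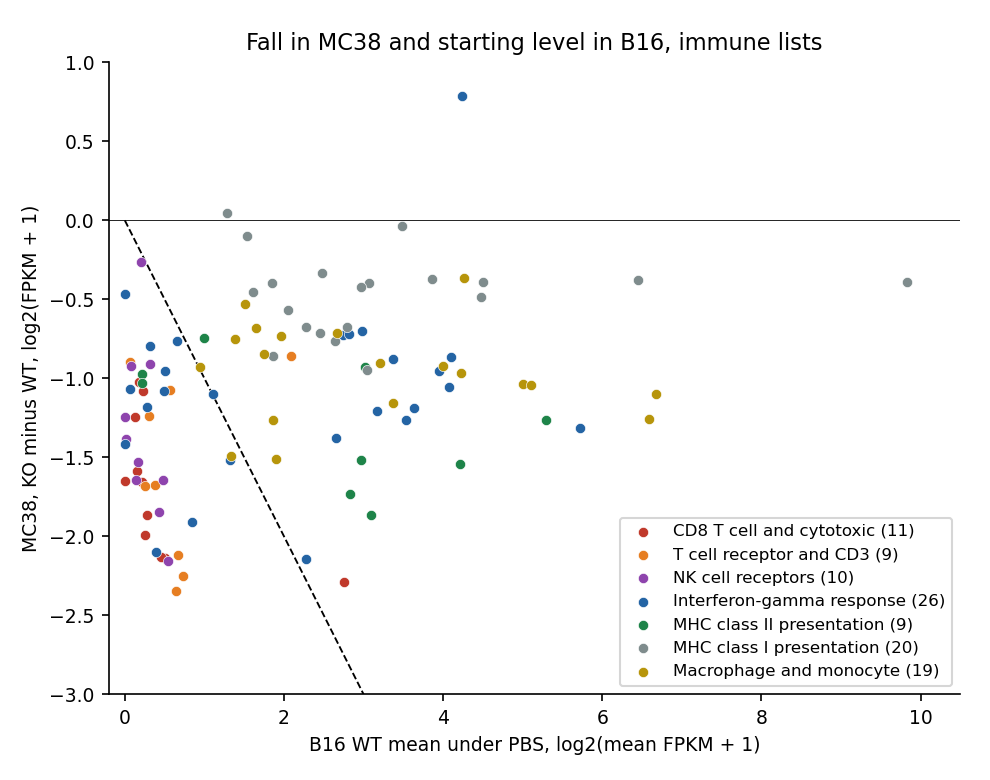
For the tested genes of 7 immune lists, the mean B16 WT level as log2(FPKM + 1) on the x axis and the MC38 effect, KO minus WT on log2(FPKM + 1), on the y axis. Genes below the dashed line had a B16 WT level too low for a fall as large as in MC38; cytotoxic, T cell receptor and NK genes sit at the left, near or below it, and macrophage and antigen presentation genes reach well to its right.

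Most genes of the integrated stress response rose in MC38 KO tumours and none was called in B16 tumours. The 30 genes summed to 915 to 1214 FPKM in B16 KO and 874 to 1072 FPKM in B16 WT tumours, against 1680.3 to 1832 FPKM in MC38 KO and 1049.7 to 1195 FPKM in MC38 WT tumours. Of 29 tested, 0 were called in B16, 22 were called higher in MC38 (against 9.96% of all genes), and 18 had a lower line difference (against 5.56% of all genes). The medians were 0.02 in B16, 0.71 in MC38 and -0.70 for the line difference, which stayed between -0.62 and -0.78 over the other scalings. The B16 median lay on either side of 0, at -0.06 without B16 KO replicate 2, -0.04 without B16 WT replicate 3 and 0.11 without B16 KO replicate 3, and at -0.01 after protein-coding rescaling. Sequences are shown first, since several members carry a site of the C/EBP-ATF kind near their start. The motif TGATGNAA, searched on both strands from 250 bases before to 50 bases after the RefSeq start, was in 4.51% of 27025 mouse genes with a window, in 11 of the 25 list members with one (44%) and in 7 of the 15 members with a called line difference and a window (46.7%). A match is a description of letters and not of binding. Windows of 2 members are printed, from RefSeq on GRCm38.p6, 5′ to 3′ on the gene's strand, with matches on either strand in capitals. The Slc7a11 window (chr3:50443564-50443863, minus strand) holds 1 match on each strand, and the Chac1 window (chr2:119350992-119351291, plus strand) 1 match on the strand opposite to the one printed.
Slc7a11: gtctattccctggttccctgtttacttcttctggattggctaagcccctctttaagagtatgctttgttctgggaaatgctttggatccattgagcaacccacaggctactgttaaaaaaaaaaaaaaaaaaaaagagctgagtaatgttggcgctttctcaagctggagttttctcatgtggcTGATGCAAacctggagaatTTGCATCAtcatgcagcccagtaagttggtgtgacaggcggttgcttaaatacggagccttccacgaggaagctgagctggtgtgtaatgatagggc
Chac1: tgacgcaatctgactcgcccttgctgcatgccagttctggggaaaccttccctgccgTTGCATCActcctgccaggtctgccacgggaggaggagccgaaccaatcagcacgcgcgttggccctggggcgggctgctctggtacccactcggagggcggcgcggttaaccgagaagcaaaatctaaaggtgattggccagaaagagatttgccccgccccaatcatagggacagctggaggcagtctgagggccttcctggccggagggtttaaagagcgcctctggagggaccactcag

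Cth, cystathionine gamma-lyase, which makes cysteine, had the largest line difference on the list. It had 4.31, 6.64 and 2.48 FPKM in B16 KO tumours, against 4.82, 5.15 and 4.88 FPKM in B16 WT tumours, which overlapped. It had 15.2, 14.6 and 12.2 FPKM in MC38 KO tumours, against 3.84, 2.45 and 3.35 FPKM in MC38 WT tumours, with no overlap. The B16 effect was -0.19 ± 0.23 (limma adjusted p = 0.746), the MC38 effect 1.84 ± 0.23 (limma adjusted p = 0.000364) and the line difference -2.03 ± 0.32 (limma adjusted p = 0.00398). Slc7a11, the cystine importer whose window is printed above, had 1.32, 1.98 and 1.04 FPKM in B16 KO tumours, against 2.06, 1.59 and 1.13 FPKM in B16 WT tumours. It had 9.47, 12.001 and 8.42 FPKM in MC38 KO tumours, against 3.21, 1.84 and 2.40 FPKM in MC38 WT tumours, and a line difference of -1.74 ± 0.28 (limma adjusted p = 0.00395). The lowest MC38 KO library was above the highest MC38 WT library, and the B16 groups overlapped. Chac1, which degrades glutathione and also has a match, had 17.8, 24.2 and 15.3 FPKM in B16 KO tumours, against 21.9, 15.5 and 16.7 FPKM in B16 WT tumours. It had 27.6, 27.9 and 36.7 FPKM in MC38 KO tumours, against 10.8, 10.1 and 9.63 FPKM in MC38 WT tumours, and a line difference of -1.42 ± 0.24 (limma adjusted p = 0.00548). Asns, asparagine synthetase, had 69.4, 88.9 and 59.2 FPKM in B16 KO tumours, against 68.9, 61.6 and 53.8 FPKM in B16 WT tumours. It had 138, 132 and 123.5 FPKM in MC38 KO tumours, against 56.2, 50.2 and 55.5 FPKM in MC38 WT tumours, and a line difference of -1.04 ± 0.19 (limma adjusted p = 0.00771). Each MC38 KO library was above each MC38 WT library, and the B16 groups overlapped. Trib3, a pseudokinase that feeds back on ATF4, had 36.3, 45.7 and 27.997 FPKM in B16 KO tumours, against 40.3, 35.9 and 28.1 FPKM in B16 WT tumours. It had 64.8, 62.9 and 85.2 FPKM in MC38 KO tumours, against 23.7, 21.1 and 37.3 FPKM in MC38 WT tumours, and a line difference of -1.31 ± 0.32 (limma adjusted p = 0.0286) that lost its call without B16 KO replicate 1 or 3, B16 WT replicate 1 or 2, MC38 KO replicate 3, or MC38 WT replicate 1 or 2 (adjusted p of 0.0542 to 0.0743).

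The remaining called members span amino acid transport, serine and one-carbon metabolism and tRNA charging. The transporter subunits Slc7a5 and Slc3a2 had line differences of -1.02 and -0.79, and the serine enzyme Psat1 and the mitochondrial folate enzyme Mthfd2 -0.64 and -0.96. Aldh18a1, for proline synthesis, had -0.70. The tRNA synthetases Aars, Sars, Gars and Nars had -0.68, -0.61, -0.57 and -0.56. The stress regulators Ddit3 and Sesn2 had -0.71 and -0.97, the secreted glycoprotein Stc2 -0.70 and the lipoprotein receptor Vldlr -1.59. Vldlr had 0.0709, 0.0229 and 0.00732 FPKM in B16 KO tumours, against 0.174, 0 and 0 FPKM in B16 WT tumours, so it was scarcely detected in B16. It had 21.4, 23.3 and 20.7 FPKM in MC38 KO tumours, against 6.83, 5.19 and 8.49 FPKM in MC38 WT tumours. Atf4 itself, which is regulated largely in translation, had 119.6, 181 and 148 FPKM in B16 KO tumours, against 159.7, 128 and 97.9 FPKM in B16 WT tumours. It had 152, 158 and 158 FPKM in MC38 KO tumours, against 150.2, 153 and 173 FPKM in MC38 WT tumours, overlapping in both lines, and its line difference was 0.25 ± 0.24 (limma adjusted p = 0.56). The other members without a called line difference were Atf3, Atf5, Phgdh, Shmt2, Ppp1r15a, Nupr1, Pck2, Wars, Cebpb and Herpud1. Of these, Ppp1r15a and Atf3 were higher in all KO than all WT libraries in both lines. Of the 13 called members named after Trib3, Gars lost its call without MC38 WT replicate 2 (adjusted p = 0.0539), Aars lost its call without B16 WT replicate 1, MC38 KO replicate 3 or MC38 WT replicate 2 (adjusted p of 0.0507 to 0.0653), and Aldh18a1, Ddit3 and Nars lost theirs without 8 or 9 of the 12 libraries (limma adjusted p of 0.0505 to 0.0869). The 18 calls became 12 without MC38 WT replicate 2 and ranged from 14 to 21 over the other settings.

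**Figure D4:**
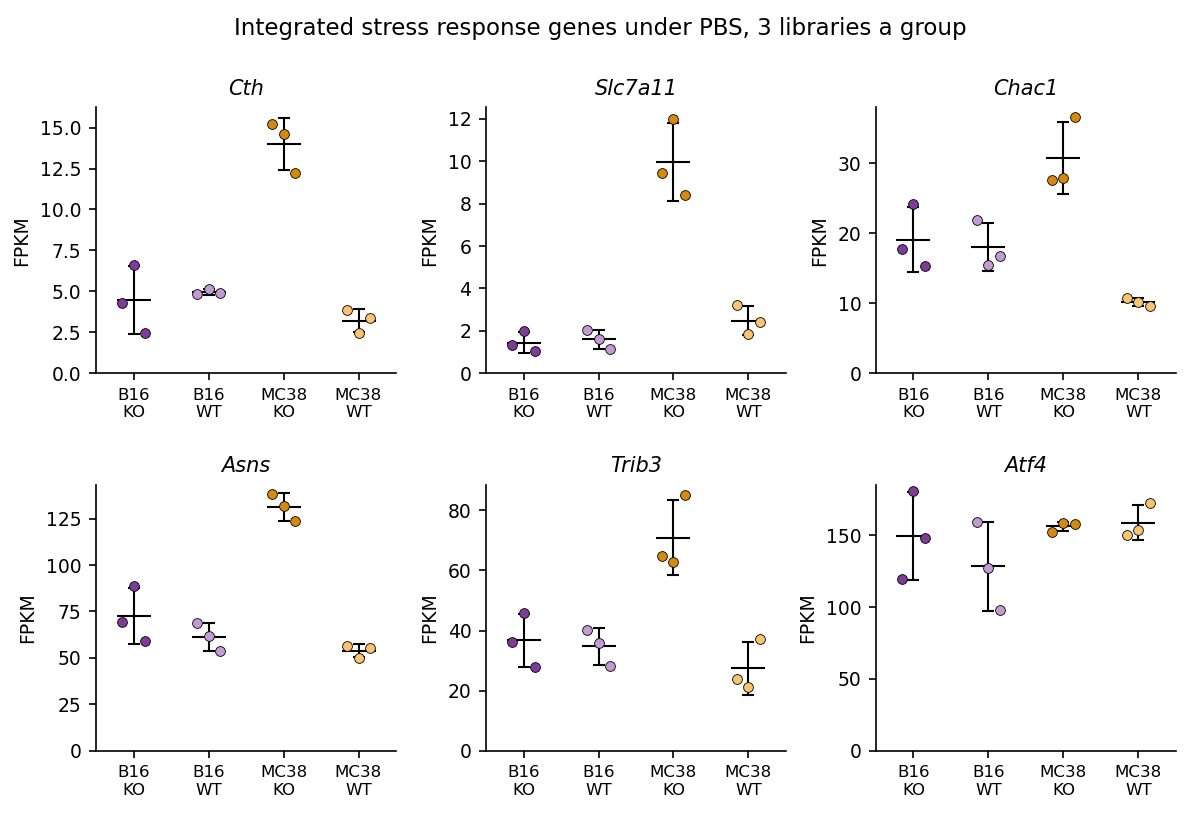
FPKM of 6 genes of the integrated stress response in each PBS library, with groups from left to right B16 KO, B16 WT, MC38 KO and MC38 WT; points are libraries, bars are means and error bars SD (n = 3). Cth, Slc7a11, Chac1, Asns and Trib3 stand higher in MC38 KO than in MC38 WT libraries with no such gap in B16, and Atf4 overlaps in both lines.

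Hypoxia and glycolysis genes called in either line were higher in KO tumours. Of 29 tested gene models, 5 were called higher in B16 (against 0.855% of all genes) and 15 higher in MC38 (against 9.96%). None was called lower in either, and 3 had a lower line difference (against 5.56%). The medians were 0.39 in B16, 0.43 in MC38 and -0.06 for the line difference, and the sign of this last value turned to 0.01 with median-of-ratios size factors. By non-overlap of replicates, 17 members were higher in B16 (against 7.22% of all genes), 19 in MC38 (against 20.1%) and 13 in both. None was lower in B16 (against 13.3%) and 2 were lower in MC38 (against 18.8%). The 13 (Vegfa, Slc2a1, Hk2, Aldoa, Tpi1, Pgam1, Pdk1, Ndrg1, Ddit4, Ero1l, P4ha1, P4ha2 and Higd1a) compare with 2% of all genes higher in both. The median line difference lay between -0.12 without B16 KO replicate 1 or MC38 KO replicate 1 and 0.08 without B16 WT replicate 1, and was above 0 also without B16 KO replicate 2 or 3, MC38 KO replicate 2 or MC38 WT replicate 1. The letters ACGTG, the core of a HIF site, were found on either strand in 21.8% of 27025 windows of the same kind, in 19 of 26 windows of the list (73.1%) and in 9 of 11 windows of the members higher in both (81.8%). The window of Hk2 (chr6:82774405-82774704, minus strand) holds 2 matches on the strand opposite to the one printed, and that of P4ha2 (chr11:54100674-54100973, plus strand) 2 on the printed strand, in capitals. They are shown because both genes were called higher in both lines.
Hk2: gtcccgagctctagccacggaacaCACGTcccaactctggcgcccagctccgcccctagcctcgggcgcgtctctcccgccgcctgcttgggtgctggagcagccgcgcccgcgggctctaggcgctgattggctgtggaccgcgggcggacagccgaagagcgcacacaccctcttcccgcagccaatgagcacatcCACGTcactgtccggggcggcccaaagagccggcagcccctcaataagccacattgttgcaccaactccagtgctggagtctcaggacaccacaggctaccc
P4ha2: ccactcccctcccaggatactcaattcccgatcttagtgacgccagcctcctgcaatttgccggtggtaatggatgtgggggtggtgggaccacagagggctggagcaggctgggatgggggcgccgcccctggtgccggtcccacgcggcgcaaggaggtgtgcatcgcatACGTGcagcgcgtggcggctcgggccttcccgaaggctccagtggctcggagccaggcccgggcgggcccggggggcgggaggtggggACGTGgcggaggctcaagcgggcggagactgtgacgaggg

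Hk2, hexokinase 2, which starts glycolysis, had 105, 85.9 and 102 FPKM in B16 KO tumours, against 57.4, 40.5 and 47.7 FPKM in B16 WT tumours. It had 33.2, 38.7 and 33.9 FPKM in MC38 KO tumours, against 17.4, 17.8 and 28.01 FPKM in MC38 WT tumours. KO libraries were above WT libraries in both lines, with effects of 1.00 ± 0.17 in B16 (limma adjusted p = 0.0177) and 0.75 ± 0.17 in MC38 (limma adjusted p = 0.0129), and a line difference of 0.26 ± 0.25 (limma adjusted p = 0.556). The B16 effect of Hk2 lost its call without B16 KO replicate 1 or 3, or B16 WT replicate 2 or 3 (adjusted p of 0.0542 to 0.0708) and its MC38 effect lost its call without MC38 WT replicate 2 (adjusted p = 0.0571). P4ha2, a collagen prolyl hydroxylase subunit, had 19.6, 15.4 and 16.6 FPKM in B16 KO tumours, against 11.7, 9.68 and 9.77 FPKM in B16 WT tumours. It had 15.4, 17.8 and 17.6 FPKM in MC38 KO tumours, against 9.08, 9.97 and 11.5 FPKM in MC38 WT tumours, and its effects were 0.68 in B16 and 0.68 in MC38 (limma adjusted p = 0.0158 and 0.00216). The B16 effect of P4ha2 lost its call without B16 KO replicate 1, or B16 WT replicate 2 or 3 (adjusted p of 0.0548 to 0.0635). Higd1a, a mitochondrial protein induced by hypoxia, had 68.3, 53.7 and 58.8 FPKM in B16 KO tumours, against 45.01, 33.2 and 32.6 FPKM in B16 WT tumours. It had 32.6, 32.97 and 29.4 FPKM in MC38 KO tumours, against 16.4, 19.05 and 22.9 FPKM in MC38 WT tumours, with effects of 0.70 in B16 and 0.69 in MC38 (limma adjusted p = 0.0367 and 0.00773). Tpi1, triose phosphate isomerase, was also called in both, at 0.42 in B16 and 0.57 in MC38 (limma adjusted p = 0.0461 and 0.00191). The B16 effect of Higd1a lost its call without any 1 of the 12 libraries other than B16 WT replicate 1, MC38 KO replicate 3, and MC38 WT replicate 1 and 3 (adjusted p of 0.0536 to 0.124), and that of Tpi1 lost its call without any 1 of the 12 libraries other than B16 WT replicate 1 (adjusted p of 0.0548 to 0.146). The line differences of P4ha2 and Higd1a were -0.01 ± 0.16 and 0.01 ± 0.20. Vegfa, the angiogenic factor, had 78.3, 64.5 and 72.3 FPKM in B16 KO tumours, against 54.8, 44.7 and 43.8 FPKM in B16 WT tumours. It had 62.4, 73.4 and 60.2 FPKM in MC38 KO tumours, against 32.7, 46.8 and 54.4 FPKM in MC38 WT tumours, and missed the threshold in B16 (limma adjusted p = 0.105) and was called in MC38 (limma adjusted p = 0.0337). The MC38 effect of Vegfa lost its call without MC38 KO replicate 1, 2 or 3, or MC38 WT replicate 1 or 2 (adjusted p of 0.0583 to 0.115).

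Of the hypoxia genes, 3 had a called line difference, each with the larger effect in MC38. Ero1l, the oxidase of disulfide formation in the endoplasmic reticulum, had 334, 266 and 279 FPKM in B16 KO tumours, against 198, 159 and 114 FPKM in B16 WT tumours. It had 351, 367 and 347 FPKM in MC38 KO tumours, against 69.6, 71.5 and 105 FPKM in MC38 WT tumours. It was called higher in both lines (limma adjusted p = 0.0391 in B16 and 5.69e-05 in MC38), and its line difference was -1.20 ± 0.28 (limma adjusted p = 0.0216), which lost its call without B16 KO replicate 2, MC38 KO replicate 2 or MC38 WT replicate 2 (adjusted p of 0.0502 to 0.0596). Its B16 effect lost its call without any 1 of the 12 libraries other than B16 WT replicate 1, and MC38 WT replicate 1 and 3 (adjusted p of 0.0538 to 0.12). With no filter its line difference lost its call (limma adjusted p = 0.055). Ddit4, an inhibitor of mTORC1 that both hypoxia and ATF4 induce, had 93.4, 85.8 and 97.04 FPKM in B16 KO tumours, against 76.5, 60.4 and 75.5 FPKM in B16 WT tumours. It had 82.3, 92.5 and 101 FPKM in MC38 KO tumours, against 32.8, 29.2 and 30.2 FPKM in MC38 WT tumours, and a line difference of -1.17 ± 0.15 (limma adjusted p = 0.00134). Pfkp, a phosphofructokinase, had one of -0.90 ± 0.18 (limma adjusted p = 0.0113). The 5 hypoxia calls in B16 became 0 without B16 WT replicate 2, B16 WT replicate 3 or B16 KO replicate 1, 2 without B16 KO replicate 2, 1 without B16 KO replicate 3 and 8 without B16 WT replicate 1. They became 2 without MC38 WT replicate 2, MC38 KO replicate 1 or MC38 KO replicate 2, 3 without MC38 KO replicate 3, 2 with no filter and 1 with all 24 libraries in 1 fit. The 15 MC38 calls became 8 without MC38 WT replicate 2.

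**Figure D5:**
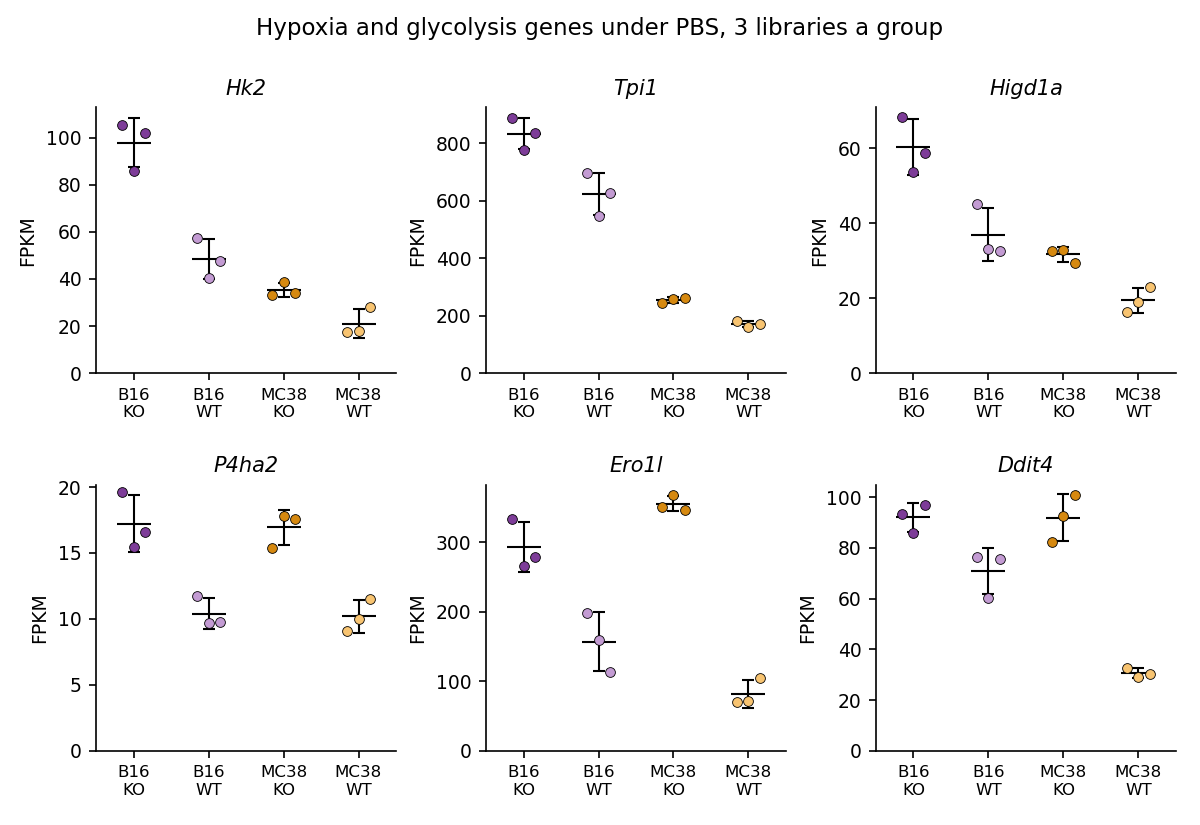
FPKM of 6 hypoxia and glycolysis genes in each PBS library, with groups from left to right B16 KO, B16 WT, MC38 KO and MC38 WT; points are libraries, bars are means and error bars SD (n = 3). In Hk2, Tpi1, Higd1a and P4ha2 all KO libraries lie above all WT libraries in both lines, and in Ero1l and Ddit4 the step is larger in MC38.

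Over all genes, few differences without overlap of replicates were shared by the lines. All 3 KO libraries were above all 3 WT libraries for 1064 genes in B16 (7.22%) and 2962 in MC38 (20.1%), and below for 1954 in B16 (13.3%) and 2768 in MC38 (18.8%). Higher in both were 294 genes (2%), which are 27.6% of the B16 and 9.93% of the MC38 list. Lower in both were 427 (2.9%), 21.9% of the B16 and 15.4% of the MC38 list. In opposite directions, 357 genes (2.42%) were lower in B16 and higher in MC38, 18.3% of the B16 and 12.1% of the MC38 list. Another 162 genes (1.1%) were higher in B16 and lower in MC38, 15.2% of the B16 and 5.85% of the MC38 list. The shared and opposite lists were chosen by these values, so the values of their members below are descriptions.

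Among genes higher in both, Fgf21, a stress-induced hormone, had 10.1, 11.9 and 4.63 FPKM in B16 KO tumours, against 2.84, 4.58 and 1.04 FPKM in B16 WT tumours. It had 2.68, 2.65 and 4.36 FPKM in MC38 KO tumours, against 0.0713, 0 and 0.195 FPKM in MC38 WT tumours. It stood at or near 0 in MC38 WT tumours and at 2.65 FPKM or more in MC38 KO tumours. Car9, carbonic anhydrase 9, a hypoxia marker at the cell surface, had 134, 100.005 and 107 FPKM in B16 KO tumours, against 76.9, 66.5 and 39.8 FPKM in B16 WT tumours. It had 7.92, 11.6 and 9.68 FPKM in MC38 KO tumours, against 2.74, 4.14 and 3.62 FPKM in MC38 WT tumours. Gys1, muscle-type glycogen synthase, had 27.998, 26.5 and 29.5 FPKM in B16 KO tumours, against 17.99, 15.1 and 12.8 FPKM in B16 WT tumours. It had 18.2, 16.6 and 19.7 FPKM in MC38 KO tumours, against 5.78, 6.51 and 12.2 FPKM in MC38 WT tumours. Car9 stood higher in B16 than in MC38, and both genes were higher in each KO library than in each WT library of the same line. Aldh1l2, a mitochondrial folate enzyme, differed by 0.82 in B16 and 1.45 in MC38. P2rx3, an ATP-gated ion channel, differed by 0.82 in B16 and 2.42 in MC38, and its called line difference of -1.60 ± 0.36 (limma adjusted p = 0.0212) lost its call without MC38 KO replicate 2 (adjusted p = 0.0521). Sh2d6 and the long noncoding RNA Platr16 were also among the 8 leading genes, ranked by the smaller of their 2 effects. Platr16 differed by 1.01 in B16 and 1.03 in MC38. The B16 effect was not called for Fgf21, Car9, Gys1, Aldh1l2, P2rx3 or Sh2d6 (limma adjusted p of 0.0593 to 0.136). That of Platr16 was called (limma adjusted p = 0.0391) but lost its call without 10 of the 12 libraries (adjusted p of 0.0513 to 0.118).

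The leading genes lower in both included Dcn, Dpt and Arg1. Dcn, decorin, a proteoglycan of fibroblasts, had 0.628, 0.323 and 0.369 FPKM in B16 KO tumours, against 3.29, 5.04 and 1.83 FPKM in B16 WT tumours. It had 52.8, 59.1 and 47.6 FPKM in MC38 KO tumours, against 214, 266 and 210.2 FPKM in MC38 WT tumours, so it was lower in KO tumours of both lines at very different levels. Dpt, dermatopontin, another matrix protein, had 0, 0.0361 and 0.206 FPKM in B16 KO tumours, against 3.03, 3.58 and 2.31 FPKM in B16 WT tumours. It had 25.3, 13.7 and 4.67 FPKM in MC38 KO tumours, against 40.9, 55.8 and 44.2 FPKM in MC38 WT tumours. Arg1, arginase 1 of suppressive myeloid cells, had 2.15, 2.33 and 0.810 FPKM in B16 KO tumours, against 6.56, 7.34 and 5.55 FPKM in B16 WT tumours. It had 11.7, 18.4 and 19.9 FPKM in MC38 KO tumours, against 55.4, 56.9 and 113 FPKM in MC38 WT tumours. Their line differences were 0.55 ± 0.31 for Dcn, 0.00 ± 0.58 for Dpt and 0.57 ± 0.43 for Arg1. None of the 3 was called. The B16 effects of Dcn, Dpt and Arg1 were called (limma adjusted p = 0.00623, 0.0456 and 0.0351). Those of Dpt and Arg1 lost their calls without 10 and 7 of the 12 libraries. The other leading genes were C1qa, C1d, Ly6c1, Plac8 and Srgn, with B16 effects between -0.94 and -0.85 and MC38 effects between -1.52 and -0.86. None of these other genes had a called B16 effect (limma adjusted p of 0.0991 to 0.222).

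The leading genes that were lower in B16 and higher in MC38 were Fbln2, Tnc, Id1, Ndufa4l2 and Prss12. Fbln2, fibulin 2, a matrix protein, had 0.255, 0.0803 and 0.145 FPKM in B16 KO tumours, against 2.13, 3.40 and 1.07 FPKM in B16 WT tumours. It had 12.2, 10.1 and 11.5 FPKM in MC38 KO tumours, against 5.63, 5.64 and 3.65 FPKM in MC38 WT tumours. Fbln2 was called lower in B16 (limma adjusted p = 0.0146), higher in MC38 (limma adjusted p = 0.00965) and for the line difference, at -2.45 ± 0.33 (limma adjusted p = 0.00168). Its B16 effect lost its call without B16 KO replicate 2 (adjusted p = 0.0596). Tnc, tenascin C, had 1.04, 0.941 and 1.03 FPKM in B16 KO tumours, against 3.61, 3.75 and 1.79 FPKM in B16 WT tumours. It had 18.1, 24.997 and 29.96 FPKM in MC38 KO tumours, against 11.5, 5.72 and 6.83 FPKM in MC38 WT tumours, and a line difference of -2.49 ± 0.36 (limma adjusted p = 0.00268). Id1, a target of BMP signalling, had one of -1.42 ± 0.28 (limma adjusted p = 0.0112), and Ndufa4l2, a hypoxia-induced mitochondrial protein, one of -1.47 ± 0.29 (limma adjusted p = 0.0117). The B16 effects of Tnc, Id1 and Ndufa4l2 were not called (limma adjusted p = 0.0837, 0.134 and 0.206). Prss12, the serine protease neurotrypsin, had 10.9, 12.6 and 12.1 FPKM in B16 KO tumours, against 21.2, 17.4 and 25.2 FPKM in B16 WT tumours. It had 0.530, 0.540 and 0.729 FPKM in MC38 KO tumours, against 0.0912, 0.0394 and 0.0700 FPKM in MC38 WT tumours, so its MC38 level was under 1 FPKM throughout, and a line difference of -1.36 ± 0.17 (limma adjusted p = 0.00128). In the other direction, Krcc1 had 49.4, 46.6 and 54.9 FPKM in B16 KO tumours, against 16.2, 15.3 and 14.7 FPKM in B16 WT tumours. It had 11.4, 13.8 and 12.4 FPKM in MC38 KO tumours, against 15.8, 19.7 and 57.9 FPKM in MC38 WT tumours, where MC38 WT replicate 3 stood apart, and a line difference of 2.66 ± 0.49 (limma adjusted p = 0.00808). Rgs16, a regulator of G protein signalling, had 5.05, 4.22 and 3.83 FPKM in B16 KO tumours, against 2.34, 2.96 and 1.09 FPKM in B16 WT tumours. It had 2.31, 2.02 and 2.81 FPKM in MC38 KO tumours, against 8.89, 9.76 and 9.13 FPKM in MC38 WT tumours, and a line difference of 2.43 ± 0.28 (limma adjusted p = 0.000998). Atp6v0d2, a proton pump subunit, had a line difference of 1.71 ± 0.35 (limma adjusted p = 0.0139) and C1s1, a complement protease, one of 1.83 ± 0.37 (limma adjusted p = 0.0123). With all 24 libraries in 1 fit Fbln2 (0.0524), Id1 (0.0916) and C1s1 (0.0602) lost their line differences (limma adjusted p). Emp1, an epithelial membrane protein, had 2.12 ± 0.74 and was not called (limma adjusted p = 0.0997). The B16 effects of Rgs16, Atp6v0d2 and C1s1 were not called (limma adjusted p = 0.0623, 0.0765 and 0.233). Nor were the MC38 effects of Krcc1 and Atp6v0d2 (limma adjusted p = 0.06 and 0.0646).

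Targets of p53, which CHK2 can phosphorylate, included genes called in both directions. Of 32 tested, 2 were called higher in B16 (against 0.855% of all genes) and none lower, 8 were called higher (against 9.96%) and 3 lower (against 9.35%) in MC38, and 6 had a lower line difference (against 5.56%). By non-overlap, 6 were higher and 1 lower in B16 (against 7.22% and 13.3% of all genes), and 11 were higher and 8 lower in MC38 (against 20.1% and 18.8%). Cdkn1a, the cell cycle inhibitor p21, had 66.4, 65.4 and 69.4 FPKM in B16 KO tumours, against 48.8, 43.9 and 42.4 FPKM in B16 WT tumours. It had 26.8, 28.9 and 23.8 FPKM in MC38 KO tumours, against 10.3, 8.91 and 10.8 FPKM in MC38 WT tumours. It rose in both lines, by 0.57 in B16 and 1.32 in MC38 (limma adjusted p = 0.0122 and 1.09e-05), with a line difference of -0.75 ± 0.13 (limma adjusted p = 0.00541). Phlda3, an inhibitor of AKT, also rose in both, by 0.43 in B16 and 0.96 in MC38 (limma adjusted p = 0.0224 and 3.29e-05), though its B16 effect lost its call without B16 KO replicate 1 or 2, or B16 WT replicate 2 or 3 (adjusted p of 0.0696 to 0.0838). Tigar, a fructose bisphosphatase, had 14.6, 18.4 and 18.2 FPKM in B16 KO tumours, against 15.5, 17.3 and 19.2 FPKM in B16 WT tumours. It had 9.996, 9.51 and 10.1 FPKM in MC38 KO tumours, against 4.35, 3.75 and 3.83 FPKM in MC38 WT tumours, and a line difference of -1.15 ± 0.14 (limma adjusted p = 0.00128). Tnfrsf10b, a death receptor, had one of -1.10 ± 0.16 (limma adjusted p = 0.00279). Mdm2, the p53 ligase, had a line difference of 0.19 ± 0.12 (limma adjusted p = 0.367). The 2 B16 calls became 1 without B16 KO replicate 1 or 2 or B16 WT replicate 2 or 3, and the 3 lower MC38 calls became 5 without MC38 WT replicate 3. Cdkn1a, Phlda3, Gadd45a and Ak1 were higher without overlap in both lines. Of 32 DNA damage and repair genes, none was called in B16. In MC38, 3 were called higher (against 9.96% of all genes) and 1 lower (against 9.35%), and 1 had a lower line difference (against 5.56%). Replication genes had 1 higher (against 3.62% of all genes) and 2 lower (against 5.56%) line differences among 30. Those lower were Mcm2 at -0.64 and Mcm10 at -0.59 (limma adjusted p = 0.0119 and 0.0294). Mcm10 lost its call without any 1 of the 12 libraries other than B16 KO replicate 3, MC38 KO replicate 1 and MC38 WT replicate 1 (adjusted p of 0.0512 to 0.0719).

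TGF-beta and BMP genes changed in both directions in MC38, with no call in B16. Of 25 tested, 8 were called higher (against 9.96% of all genes) and 5 lower (against 9.35%) in MC38, with 3 higher (against 3.62%) and 4 lower (against 5.56%) line differences. Bmp5 and Tgfb2 passed the filter through the MC38 KO libraries alone, where they were high, so these counts are descriptions. Bmp5, a BMP ligand, was listed at 0 in all 6 B16 libraries. It had 9.97, 9.21 and 7.76 FPKM in MC38 KO tumours, against 0.270, 0.158 and 0.632 FPKM in MC38 WT tumours, and a line difference of -2.89 ± 0.19 (limma adjusted p = 3.3e-05). With B16 at 0, this line difference is the MC38 effect with its sign turned. Tgfb2, a ligand, had a line difference of -1.26 ± 0.15 (limma adjusted p = 0.00105). On the other side stood the receptors Tgfbr3 at 0.96 and Tgfbr2 at 0.48 and the target Id2 at 1.07 (limma adjusted p = 0.0152, 0.0414 and 0.0162). Tgfbr2 lost its call without any 1 of the 12 libraries other than B16 KO replicate 1 and B16 WT replicate 1 (adjusted p of 0.0603 to 0.0979). The 8 higher calls in MC38 became 3 without MC38 KO replicate 3 and 4 without MC38 KO replicate 2, and the 4 lower line differences became 2 without any 1 of the 3 MC38 KO libraries, where Bmp5 and Tgfb2 no longer passed the filter. The 5 lower calls became 3 without MC38 WT replicate 2.

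Fibroblast and collagen genes had their called B16 changes in 1 direction. Of 24 tested, 3 were called lower in B16 (against 0.875% of all genes) and none higher, while 2 were called higher and 3 lower in MC38 (against 9.96% and 9.35%). There were 4 lower line differences (against 5.56%) and no higher one, with medians of -0.58 in B16, -0.06 in MC38 and -0.33 for the line difference. The MC38 median turned to 0.03 after quantile normalization. The B16 median was -0.30 without B16 WT replicate 2 and -0.35 without B16 KO replicate 2, the MC38 median -0.18 without MC38 WT replicate 3 and -0.09 without MC38 KO replicate 1, and the median line difference -0.19 without B16 WT replicate 2 and -0.50 without B16 WT replicate 3. Adipocyte genes summed to 9.30 to 10.7 FPKM in B16 KO and 14.01 to 35.7 FPKM in B16 WT tumours. Of 4 tested members, 3 were lower without overlap in B16 (against 13.3% of all genes), and the part of these genes was not tested. Col3a1, a fibrillar collagen chain, had 3.44, 1.99 and 3.82 FPKM in B16 KO tumours, against 22.2, 37.7 and 13.7 FPKM in B16 WT tumours. It had 245, 289 and 308 FPKM in MC38 KO tumours, against 428, 539.9 and 439.5 FPKM in MC38 WT tumours, and a line difference of -1.83 ± 0.41 (limma adjusted p = 0.0197) that lost its call without MC38 KO replicate 3 (adjusted p = 0.0513). Every KO library was below every WT library in each line. Col1a1 had 5.30, 1.99 and 5.17 FPKM in B16 KO tumours, against 25.8, 44.5 and 9.04 FPKM in B16 WT tumours. It had 55.8, 46.1 and 56.6 FPKM in MC38 KO tumours, against 58.5, 43.6 and 22.8 FPKM in MC38 WT tumours, and a line difference of -2.67 ± 0.71 (limma adjusted p = 0.0385) that lost its call without any 1 of the 12 libraries other than B16 WT replicate 3 and MC38 WT replicate 1 (adjusted p of 0.0508 to 0.0857). Timp1, an inhibitor of matrix metalloproteinases, had 8.57, 6.65 and 9.58 FPKM in B16 KO tumours, against 26.96, 22.1 and 14.2 FPKM in B16 WT tumours. It had 68.8, 70.7 and 57.5 FPKM in MC38 KO tumours, against 48.2, 38.8 and 47.4 FPKM in MC38 WT tumours, so its libraries moved in opposite directions without overlap, with a line difference of -1.76 ± 0.28 (limma adjusted p = 0.00398). With all 24 libraries in 1 fit Timp1 (0.0699) and Col1a1 (0.148) lost their line differences (limma adjusted p). The 3 calls in B16 became 7, and the 4 line differences 8, without B16 WT replicate 3, and both became 0 with all 24 libraries in 1 fit. The 2 higher MC38 calls became 4 without B16 WT replicate 3, and the 3 lower became 1 without MC38 WT replicate 2, 6 without B16 WT replicate 2 and 5 without B16 WT replicate 3 or B16 KO replicate 2.

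The largest line differences of single genes were of several kinds. Grb10, an imprinted adaptor of growth factor receptors, had 0.459, 0.377 and 0.586 FPKM in B16 KO tumours, against 1.03, 1.14 and 0.586 FPKM in B16 WT tumours. It had 1.25, 0.639 and 0.639 FPKM in MC38 KO tumours, against 13.9, 16.8 and 17.5 FPKM in MC38 WT tumours, and a line difference of 2.85 ± 0.22 (limma adjusted p = 0.000107). Igf2, an imprinted growth factor, was listed at 0 in all B16 libraries. It had 0.0102, 0.0152 and 0.0191 FPKM in MC38 KO tumours, against 5.64, 5.41 and 14.1 FPKM in MC38 WT tumours, and a line difference of 3.09 ± 0.36 (limma adjusted p = 0.00105). Pttg1ip, which binds the securin PTTG1, had 15.8, 5.75 and 7.99 FPKM in B16 KO tumours, against 6.51, 5.32 and 6.39 FPKM in B16 WT tumours. It had 11.4, 28.3 and 10.96 FPKM in MC38 KO tumours, against 73.5, 89.5 and 86.4 FPKM in MC38 WT tumours, and a line difference of 2.87 ± 0.50 (limma adjusted p = 0.0061). In these 3 genes the called change was in MC38. Without MC38 WT replicate 1, 2 or 3, Igf2 no longer passed the filter. Mcmdc2, a meiotic member of the MCM family, changed in B16 instead. It had 5.40, 5.05 and 5.72 FPKM in B16 KO tumours, against 0.105, 0.291 and 0.199 FPKM in B16 WT tumours. It had 0.0256, 0.0617 and 0.108 FPKM in MC38 KO tumours, against 0.0206, 0 and 0.0515 FPKM in MC38 WT tumours, near 0 in all 6 libraries. The B16 effect was 2.42 ± 0.10 (limma adjusted p = 6.21e-07) and the line difference 2.36 ± 0.14 (limma adjusted p = 3.3e-05). Capn6, a calpain without protease activity, likewise rose in B16, with 20.3, 23.2 and 24.1 FPKM in B16 KO tumours, against 5.29, 6.20 and 7.62 FPKM in B16 WT tumours. It had 1.81, 2.01 and 2.06 FPKM in MC38 KO tumours, against 3.69, 3.79 and 1.85 FPKM in MC38 WT tumours, and a line difference of 2.12 ± 0.26 (limma adjusted p = 0.00117). Gzmc, a granzyme, had a line difference of 2.29 ± 0.53 (limma adjusted p = 0.0217), with all B16 libraries under 1 FPKM. Gzmc lost its call without B16 WT replicate 1 or MC38 WT replicate 3 (adjusted p of 0.0503 to 0.052), with a pseudocount of 0.1 FPKM (limma adjusted p = 0.322) and with no filter (limma adjusted p = 0.0569). C78283 had a line difference of 2.15 ± 0.19 (limma adjusted p = 0.000237). Mcmdc2 without any 1 B16 KO library, and C78283 without any 1 MC38 WT library, no longer passed the filter.

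Among the genes with a lower line difference, Mmp10, a stromelysin, had 0.335, 0 and 0 FPKM in B16 KO tumours, against 0.206, 0.494 and 0 FPKM in B16 WT tumours. It had 22.1, 21.5 and 7.49 FPKM in MC38 KO tumours, against 1.02, 0.333 and 0.958 FPKM in MC38 WT tumours, and a line difference of -3.38 ± 0.48 (limma adjusted p = 0.00242). Tnnt2, cardiac troponin T, had 0.340, 0.439 and 0.361 FPKM in B16 KO tumours, against 0.573, 0.657 and 0.219 FPKM in B16 WT tumours. It had 17.3, 18.1 and 13.6 FPKM in MC38 KO tumours, against 1.78, 1.60 and 1.35 FPKM in MC38 WT tumours, and a line difference of -2.84 ± 0.20 (limma adjusted p = 3.8e-05). Both were high in MC38 KO tumours alone. Car6, a secreted carbonic anhydrase, was well expressed in B16. It had 162, 204 and 205 FPKM in B16 KO tumours, against 202, 237 and 129 FPKM in B16 WT tumours, overlapping. It had 43.1, 40.2 and 41.2 FPKM in MC38 KO tumours, against 4.50, 3.86 and 10.4 FPKM in MC38 WT tumours, and a line difference of -2.61 ± 0.41 (limma adjusted p = 0.00376). Ostn, the peptide osteocrin, had a line difference of -2.59 ± 0.27 (limma adjusted p = 0.000661), which lost its call with a pseudocount of 0.1 FPKM (limma adjusted p = 0.0592), and Zfp46, a zinc finger gene, one of -2.59 ± 0.47 (limma adjusted p = 0.00806). In Zfp46 the B16 KO libraries overlapped the B16 WT libraries, with 0.342, 3.09 and 0.597 FPKM in B16 KO tumours, against 3.41, 2.79 and 4.06 FPKM in B16 WT tumours.

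Type I interferon response genes had called rises in B16 and called falls in MC38. Of 27 tested, 2 were called higher in B16 (against 0.855% of all genes) and 4 lower in MC38 (against 9.35%), with 3 higher line differences (against 3.62%) and medians of 0.32 in B16, -0.29 in MC38 and 0.63 for the line difference. The B16 median was 0.57 without B16 KO replicate 1 and 0.14 without B16 KO replicate 3, and the MC38 median -0.18 without MC38 KO replicate 3. Rtp4, a chaperone protein induced by interferon, had 7.85, 8.80 and 10.2 FPKM in B16 KO tumours, against 4.51, 3.84 and 2.99 FPKM in B16 WT tumours. It had 9.59, 10.7 and 8.19 FPKM in MC38 KO tumours, against 13.1, 11.5 and 14.4 FPKM in MC38 WT tumours. KO and WT libraries did not overlap in either line. The B16 effect was 1.06 ± 0.14 (limma adjusted p = 0.005), the MC38 effect -0.42 ± 0.14 (limma adjusted p = 0.0591) and the line difference 1.48 ± 0.20 (limma adjusted p = 0.00168). Ifit3, an antiviral protein, had 21.5, 59.2 and 43.1 FPKM in B16 KO tumours, against 25.2, 31.1 and 19.5 FPKM in B16 WT tumours. It had 48.6, 48.8 and 38.4 FPKM in MC38 KO tumours, against 104, 103 and 109 FPKM in MC38 WT tumours, and a line difference of 1.81 ± 0.41 (limma adjusted p = 0.02), which lost its call without MC38 KO replicate 3 (adjusted p = 0.0532). Its line difference also lost its call with no filter (limma adjusted p = 0.0522) and with all 24 libraries in 1 fit (limma adjusted p = 0.211). Ifit2 of the same family had one of 1.31 ± 0.22 (limma adjusted p = 0.00535). The counts depended on B16 KO replicate 1, where Ifit3 was lower than in the other B16 KO libraries. Without it 10 genes were called higher in B16, 8 lower in MC38 and 16 for the line difference. The 2 B16 calls became 1 without B16 KO replicate 2 or 3 or B16 WT replicate 2 or 3, and the 4 MC38 calls became 2 without MC38 KO replicate 3.

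Small structural RNAs, which the library preparation and RNA quality can alter, differed strongly between the lines. Of 7 tested, 1 was called lower in B16 (against 0.875% of all genes) and 6 higher in MC38 (against 9.96%). There were 5 lower line differences (against 5.56%), with medians of -0.40 in B16, 2.19 in MC38 and -2.40 for the line difference. The B16 median was -0.73 without B16 KO replicate 2 and -0.10 without B16 KO replicate 3. Their summed level was 16.3 to 36.8 FPKM in B16 KO and 33.3 to 39.6 FPKM in B16 WT tumours, against 170.6 to 175.8 FPKM in MC38 KO and 20.3 to 29.96 FPKM in MC38 WT tumours. The MC38 KO libraries thus stood apart from the other 9. n-R5-8s1, a ribosomal RNA gene, had 0.177, 0.206 and 0.675 FPKM in B16 KO tumours, against 2.49, 2.16 and 3.17 FPKM in B16 WT tumours. It had 72.6, 60.3 and 71.04 FPKM in MC38 KO tumours, against 6.30, 4.14 and 8.60 FPKM in MC38 WT tumours, and a line difference of -4.70 ± 0.30 (limma adjusted p = 3.3e-05). Rn7s1, a signal recognition particle RNA gene, had one of -3.29 ± 0.41 (limma adjusted p = 0.00126). Both have near-identical copies, so their read assignment is uncertain. The part of RNA quality in the other line differences was not tested. Keratinocyte genes, which mark skin, summed to 21.7 to 33.9 FPKM in MC38 KO and 7.75 to 9.71 FPKM in MC38 WT tumours, and their part was not tested. Skeletal muscle genes summed to 10.3 to 13.6 FPKM in B16 KO and 14.6 to 16.4 FPKM in B16 WT tumours, against 13.1 to 188.7 FPKM in MC38 KO and 11.04 to 55.5 FPKM in MC38 WT tumours. Their median line difference was -1.14 over 12 tested members. Of these, 1 was called lower for it (against 5.56% of all genes) and 1 higher in MC38 (against 9.96%). The median was -0.05 without MC38 KO replicate 1 and -1.91 without MC38 KO replicate 3. Single MC38 libraries thus stood apart, and the part of muscle genes was not tested.

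Other lists had few calls. Of 40 cytosolic ribosomal protein genes, none was called in B16, 2 were called lower in MC38 (against 9.35% of all genes) and none for the line difference. Without overlap, 16 were lower in B16 (against 13.3%), 12 in MC38 (against 18.8%) and 8 in both (against 2.9%). None was higher in B16 (against 7.22%) and 2 were higher in MC38 (against 20.1%). The medians were -0.15 in B16 and -0.08 in MC38, and the MC38 median turned to 0.03 after quantile normalization. Of 28 mitosis genes, 1 was called lower in B16 (against 0.875%), 1 higher (against 9.96%) and 2 lower (against 9.35%) in MC38. A lower line difference was called for 1 (against 5.56%). Leaving out single libraries of either line took the single mitosis calls to 0. Of 16 Wnt pathway genes, 2 line differences were higher (against 3.62% of all genes) and 2 lower (against 5.56%). Of the 16, 1 passed the filter through the B16 WT libraries alone, so these counts are descriptions. The 2 lower became 0 without B16 KO replicate 2, B16 WT replicate 2 or MC38 WT replicate 2 or 3. They became 1 without B16 WT replicate 1 or MC38 KO replicate 2 or 3. Dkk2, a secreted Wnt antagonist, had 1.22 ± 0.20 (limma adjusted p = 0.00475) and Wnt5a, a non-canonical ligand, 1.04 ± 0.21 (limma adjusted p = 0.0126). Wnt5a lost its call with a pseudocount of 0.1 FPKM (limma adjusted p = 0.256). Of the mitochondrially encoded genes none was called. In the inflammatory cytokine list, Ptgs2, cyclooxygenase 2, had a line difference of -1.49 ± 0.34 (limma adjusted p = 0.0205), which lost its call without MC38 KO replicate 3 (adjusted p = 0.0516), and Il15, a cytokine for CD8 T and NK cells, one of 1.04 ± 0.28 (limma adjusted p = 0.041), which lost its call without any 1 of the 12 libraries other than MC38 WT replicate 1 (adjusted p of 0.0594 to 0.0916). Ccl7, a monocyte chemokine, had 1.17 ± 0.31 (limma adjusted p = 0.0412) and lost its call without any 1 of the 12 libraries other than B16 KO replicate 1, B16 WT replicate 3 and MC38 KO replicate 2 (adjusted p of 0.0515 to 0.101). With a pseudocount of 0.1 FPKM Ptgs2 (0.0865), Il15 (0.0506) and Ccl7 (0.0563) lost their calls, with no filter Ptgs2 (0.0514), Il15 (0.0931) and Ccl7 (0.0944), and with all 24 libraries in 1 fit Ptgs2 (0.0604) and Ccl7 (0.21) (limma adjusted p).

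The 12 anti-PD-1 libraries, which the PBS comparison did not use, gave the same contrast a separate look. The 3 B16 KO libraries stood apart there, with FPKM sums of 375193 to 398474 against 310868 to 344059 over the PBS libraries, and erythroid genes summed there to 1015 to 15559 FPKM. Under anti-PD-1, 4296 of 14866 genes had a called line difference (28.9%), 1622 higher (10.9%) and 2674 lower (18%). In B16 5861 genes (39.4%) were called, 14.8% of all higher and 24.6% lower, and in MC38 1011 (6.8%), 2.67% higher and 4.13% lower. After rescaling to protein-coding genes, higher calls were 16.8% of the line differences, against 37.8% on the deposited scale. Of 503 genes with a higher line difference under PBS that were tested again, 168 (33.4%) were called higher again, against 11.1% of all genes, and 22 were called lower. Of 792 with a lower one, 376 (47.5%) were called lower again, against 18.5% of all genes, and 9 were called higher. The medians of the line difference under anti-PD-1 were 0.51 over the 503 genes and -0.46 over the 792. The 3-way term, which tests whether the line difference differs between the treatments, was called for 1848 of 15655 genes (11.8%).

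Genes of the integrated stress response had lower line differences after anti-PD-1 too, in fewer members. Of 29 tested, 4 were called lower in B16 (against 24.6% of all genes), 7 higher in MC38 (against 2.67%) and 9 lower for the line difference (against 18%). The median line difference was -0.42. Slc7a11 had a line difference of -2.43 (limma adjusted p = 0.000315) and Cth -2.17 (limma adjusted p = 0.00289). Cytotoxic genes had another form there. Of 12 tested, 5 were called higher in B16 (against 14.8% of all genes) and none was called in MC38. There was 1 higher line difference (against 10.9%), and the medians were 1.02 in B16 and -0.07 in MC38. In the same B16 libraries skeletal muscle genes summed to 23.4 to 2698 FPKM in KO and 12.9 to 17.5 FPKM in WT tumours. Their median B16 effect was 3.71, and 11 of 15 tested members were higher without overlap (against 18.9% of all genes). Of 40 ribosomal protein genes, 33 were called higher in B16 (against 14.8%). The part of either list was not tested. Of 29 hypoxia genes, 5 were called higher (against 14.8% of all genes) and 2 lower (against 24.6%) in B16. In MC38, 2 were called higher (against 2.67%). Without overlap, 1 was higher in both lines (against 2.67% of all genes), while 13 were under PBS. Of the genes higher in both lines under PBS, 22 of 289 tested again (7.61%) were higher in both under anti-PD-1, against 2.67% of all genes tested there. In B16, 57 of the 289 (19.7%) were higher and 89 (30.8%) lower without overlap, against 18.8% and 29.8% of all genes tested under both treatments, with a median B16 effect of -0.06. In MC38, 106 (36.7%) were higher and 6 lower, against 15.9% and 17.7% of all genes tested under both treatments. Of those lower in both, 60 of 426 (14.1%) were lower in both again, against 5.56% of all genes tested there. In B16, 109 of the 426 (25.6%) were higher and 101 (23.7%) lower, against 18.8% and 29.8% of all genes tested under both treatments, with a median B16 effect of 0.11. In MC38, 29 were higher and 204 (47.9%) lower, against 15.9% and 17.7% of all genes tested under both treatments. Small structural RNAs had no called line difference under anti-PD-1, where n-R5-8s1 had 0.61 (limma adjusted p = 0.316). Grb10 at 2.84, Mcmdc2 at 2.79, Bmp5 at -2.49 and Mmp10 at -2.47 had line differences of the same sign as under PBS, and Fbln2 at -0.01 and Col1a1 at -0.04 were close to 0.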

How the data were processed

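Tumour RNA was extracted with Trizol and sequenced on Illumina libraries, per the labels. FPKM values were deposited by the authors, 1 file per library, and the submitters' processing notes name FastQC, STAR 2.5, Cuffnorm, DESeq and the build mm10, with no role or order. Strand, read length and how libraries were scaled against each other are not given in the sources used here. Whole fragment counts could not be recovered (18.8% to 25.7% of low values were whole within 0.02), so the count tests were not run, and the depths are estimates.

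From the files, log2(FPKM + 1) was fitted with limma 3.58.1 in R 4.3.3, with 1 mean per group, a mean-variance trend and Benjamini-Hochberg adjustment over the genes that reached 1 FPKM in 3 or more of the 12 libraries. The fitting was tested on simulated data. No overlap means all 3 KO libraries above, or all 3 below, the 3 WT libraries of a line. Replicate numbers are in accession order and pair nothing. No 2 libraries were duplicates.

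The members and the 40 gene lists were chosen with earlier results of these data known. Named genes were Chek2 and a panel of 8 immune genes, the 10 largest called line differences in each direction, the 8 leading genes of each shared list and 5 of each opposite list, and the 2 largest called members of each list with at least 3 called. Genes outside the rule were named as list members after their values were seen, among them H2-K1, C1qa, Vegfa, Asns and Cdkn1a. Of the 61 named genes with a called line difference, 1 is not reported here. Alternatives were a pseudocount of 0.1 FPKM, no filter, a filter on the mean, protein-coding genes alone, quantile normalization, size factors, no trend, all 24 libraries in 1 fit, each library left out, and, chosen after seeing the data, a filter applied in each line.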

Additional observations from a re-analysis of the deposited data

Results flagged for a closer look

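The difference of the knock-out effects between lines was itself tested, as an interaction term in limma. It was called for 1353 genes under PBS and for 4296 genes under anti-PD-1, and the 3-way term with treatment for 1848 genes. The named genes with a called line difference under PBS follow, each as the B16 effect minus the MC38 effect on log2(FPKM + 1), all at a limma adjusted p under 0.05.

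Of T cell, NK cell and checkpoint genes, the line differences were Gzmc 2.29, Ccl5 2.11, Gzma 1.98, Trbc2 1.96, Klrd1 1.95, Trbc1 1.86, Cd8a 1.83, Gzmb 1.77, Ifng 1.65, Il2rb 1.56, Prf1 1.46, Pdcd1lg2 1.39, Ctla4 1.22 and Pdcd1 0.98. Gzmb lost its call (adjusted p of 0.0518 to 0.0611) without B16 KO replicate 2, B16 WT replicate 1 or 3, MC38 KO replicate 2, or MC38 WT replicate 1 or 3. Klrd1 lost its call (adjusted p of 0.053 to 0.0663) without B16 KO replicate 2, B16 WT replicate 1, MC38 KO replicate 2 or 3, or MC38 WT replicate 2. With a pseudocount of 0.1 FPKM, Gzma (0.279), Gzmb (0.574), Klrd1 (0.254) and Prf1 (0.229) lost their calls (limma adjusted p). With no filter Gzmb (0.0654) and Klrd1 (0.062) did, and with all 24 libraries in 1 fit Gzma (0.0627) and Gzmb (0.119).

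Of interferon response, antigen presentation, cytokine and complement genes, they were Gbp10 2.15, Ccl2 1.92, C1s1 1.83, Ifit3 1.81, Gbp4 1.68, Rtp4 1.48, Ccl7 1.17, Il15 1.04, Tapbp 0.96, H2-M3 0.94 and Ptgs2 -1.49. Of stress, hypoxia, p53 and replication genes they were Cth -2.03, Slc7a11 -1.74, Ndufa4l2 -1.47, Ero1l -1.20, Ddit4 -1.17, Tigar -1.15, Tnfrsf10b -1.10, Mcm2 -0.64 and Mcm10 -0.59. Chek2 itself had 0.62.

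Of growth factor, TGF-beta, Wnt and matrix genes, they were Igf2 3.09, Grb10 2.85, Dkk2 1.22, Wnt5a 1.04, Id1 -1.42, Timp1 -1.76, Fbln2 -2.45, Tnc -2.49, Col1a1 -2.67, Bmp5 -2.89 and Mmp10 -3.38. Of the structural RNAs, n-R5-8s1 had -4.70 and Rn7s1 -3.29. The remaining named genes had Pttg1ip 2.87, Krcc1 2.66, Rgs16 2.43, Mcmdc2 2.36, C78283 2.15, Capn6 2.12, Atp6v0d2 1.71, Prss12 -1.36, P2rx3 -1.60, Zfp46 -2.59, Ostn -2.59, Car6 -2.61 and Tnnt2 -2.84.

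Of the 61 called line differences of named genes, 47 were called without each library in turn, where they still passed the filter, and 32 under every alternative that tested them. The other 14 lost their call without at least 1 library.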

How the results depend on the processing

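No called value of a named gene turned its direction under an alternative. The majority direction of the calls under PBS did turn with size factors, where higher calls were 54.5% of the line differences (39.4% as reported), 67.8% of the B16 calls (49.4% as reported, 59.5% after quantile normalization) and 45.7% of the MC38 calls (51.6% as reported). No paired analysis was possible because the labels give no replicate numbers. Over the other settings the counts of calls stayed within 1.5 times their reported value, except 851 line differences and 148 B16 calls under PBS with the filter applied in each line, and 1578 MC38 calls under anti-PD-1 with all 24 libraries in 1 fit.

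With 1 library left out, line differences under PBS ranged from 707 to 1176 (lowest without MC38 WT replicate 2, 772 without MC38 KO replicate 3 and 864 without MC38 KO replicate 2), MC38 calls from 1614 to 2930 (lowest without MC38 WT replicate 2, 1766 without MC38 KO replicate 3 and 1841 without MC38 KO replicate 2) and B16 calls from 88 to 253. The B16 calls were 114, 88 and 149 without B16 KO replicate 1, 2 or 3, 144, 108 and 126 without B16 WT replicate 1, 2 or 3, and 167 without MC38 KO replicate 2. Genes without overlap in the same direction ranged from 792 to 1155 (reported value 721) and in opposite directions from 585 to 831 (reported value 519); fewer libraries overlap less often by construction. The highest came without B16 KO replicate 3 (1155 and 822) and without B16 WT replicate 3 (831). Under anti-PD-1, line differences ranged from 3380 to 4304, B16 calls from 4441 to 5702, the 3-way term from 1378 to 2101, and MC38 calls from 424 to 1273, with 468, 499 and 446 without MC38 KO replicate 1, 2 or 3 and 424, 633 and 547 without MC38 WT replicate 1, 2 or 3.

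Of the 61 called line differences of named genes, 44 were called with a pseudocount of 0.1 FPKM, 50 with no filter, 46 with all 24 libraries in 1 fit, and all 61 after quantile normalization, with size factors or with no trend. FPKM steps gave no counts, so no interval for low values can be given, and the causes of these moves were not tested beyond the smaller number of libraries.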
